A study of Rattus norvegicus with 12 samples.

Results

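The genes that make prostaglandins and leukotrienes from arachidonic acid were followed in cells washed from rat lungs. The set was defined by name as 10 genes, namely Pla2g4a, Ptgs1, Ptgs2, Ptges, Hpgd, Alox5, Alox5ap, Lta4h, Ltc4s and Alox15, of 14217 genes with a probe set that names only them on the array. These 10 genes have 13 probe sets of the 31099 in the table, and each gene was read from the probe set of highest mean intensity. The second probe sets of Ptgs1, Ptges and Hpgd served as a check. The intensity is the brightness of a probe set on a linear scale, and levels were not compared between genes because each probe set has its own brightness.

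The cells came from the bronchoalveolar lavage fluid (BALF) of 8-week-old male Sprague-Dawley rats, an outbred strain, and all rats went without food and water during the exposure. CTL rats received saline in the tail vein and stayed in normoxia, and LPS rats received 0.5 mg/kg lipopolysaccharide, a bacterial cell wall component, by the same route in normoxia. HPO rats spent 6 h in hypobaric hypoxia at 405.35 mmHg, the pressure of 5000 m with 11.2% oxygen, and COMB rats received the LPS dose and then the same hypoxia. No saline injection is described for HPO in the sources used here. Each group had 3 pooled RNA samples, each on 1 array, so that 12 arrays were compared. The labels name the rats of each pool: 1, 3 and 4, then 5, 6 and 7, then 8, 9 and 10 in CTL, 2, 3 and 6, then 5, 7 and 11, then 8, 9 and 10 in LPS, 7, 8 and 9, then 2, 4 and 11, then 3, 5 and 12 in HPO, and 2 and 3, then 10 and 11, then 12, 13 and 14 in COMB. Values are given below in that order. The lavaged cells were not sorted, and pooling hides the spread between single rats.

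Arachidonic acid is released from membrane phospholipids by phospholipases A2 and then enters separate branches. In the cyclooxygenase branch, PTGS1 and PTGS2 form prostaglandin H2, which synthases turn into prostaglandins and thromboxane. In the lipoxygenase branch, ALOX5 with its partner ALOX5AP forms leukotriene A4, which LTA4H turns into the neutrophil attractant leukotriene B4 and LTC4S into the cysteinyl leukotrienes. Alveolar macrophages, the main resident cells of the airspace, are known to make both kinds of mediator.

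The 12 arrays had median intensities of 32.72 to 35.61, and 20% of the probe sets of an array lay below 10.13 to 11.25. The alveolar macrophage markers Mrc1, between 5404 and 7759, and Cd68, between 3663 and 4400, were bright on every array. Not all listed markers of these cells were. Car4 was between 13.31 and 72.31 outside COMB and between 64.93 and 743.8 in COMB. Chi3l1 was between 38.15 and 347.9 outside COMB and between 656 and 1443 in COMB. The CTL pool of rats 5, 6 and 7 stood apart from the other CTL pools in markers of other leukocytes. Its intensity of S100a9, a calcium-binding protein of neutrophils and monocytes, was 2011, against 20.64 and 60.21. Its summed intensity of 8 markers of T and NK cells was 2704, against 533 and 953, and that of 11 neutrophil markers was 6588, against 4272 and 4200. Results that rest on this pool are given below with and without it.

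In the COMB group the leukotriene genes Alox5 and Lta4h fell against CTL, by 1.26 and 0.65 on the log2 scale, and the prostaglandin E2 synthase Ptges rose by 0.43. Ptgs1 also fell, by 0.94, and the inducible cyclooxygenase Ptgs2 was high in all 3 COMB pools and in 1 CTL pool. Of the 10 genes, 1 was higher and 3 were lower in COMB than in CTL at an adjusted p under 0.05 in limma, where 8.84% of the 25692 probe sets tested were higher and 10.2% were lower. The median log2 difference of the 10 genes was -0.32, against -0.04 over all probe sets tested. Leaving out CTL rats 5, 6 and 7 gave 2 higher and 3 lower, with Ptgs2 added. Calls over all probe sets in that fit numbered 4316, 46.2% of them higher. With all arrays they numbered 4895, 46.4% of them higher.

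No gene of the 10 passed the test in LPS against CTL or in HPO against CTL. Over all probe sets, 0.868% were higher and 1.18% lower in LPS than in CTL, and 0.035% were higher and 0% lower in HPO than in CTL. At an unadjusted p under 0.05, limma had 3 of the 10 genes in LPS against CTL, where 14.8% of all probe sets did so, and 1 in HPO against CTL, where 9.71% did so. An unpaired Student's t-test had, unadjusted, 3 and 2 of the 10 genes in these comparisons, and 17.2% and 8.66% of all probe sets. The study names Student's t-test for group comparisons, and for the arrays a paired t-test and a fold criterion. Against the single exposures, COMB had 2 lower genes in comparison with LPS, where 6.64% of all probe sets were higher and 5.27% lower, and 3 lower genes in comparison with HPO, where 6.83% were higher and 8.75% lower. LPS against HPO had 1 lower gene, Ltc4s, and 2.59% of all probe sets were higher and 4.6% lower. The comparisons with CTL share the CTL arrays, and those with COMB share the COMB arrays. The interaction, which is the effect of hypoxia with LPS minus its effect without LPS, passed for none of the 10 genes in limma and for 0.136% of all probe sets. At an unadjusted p under 0.05 it had 4 of the 10 genes and 12.3% of all probe sets.

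**Figure D1:**
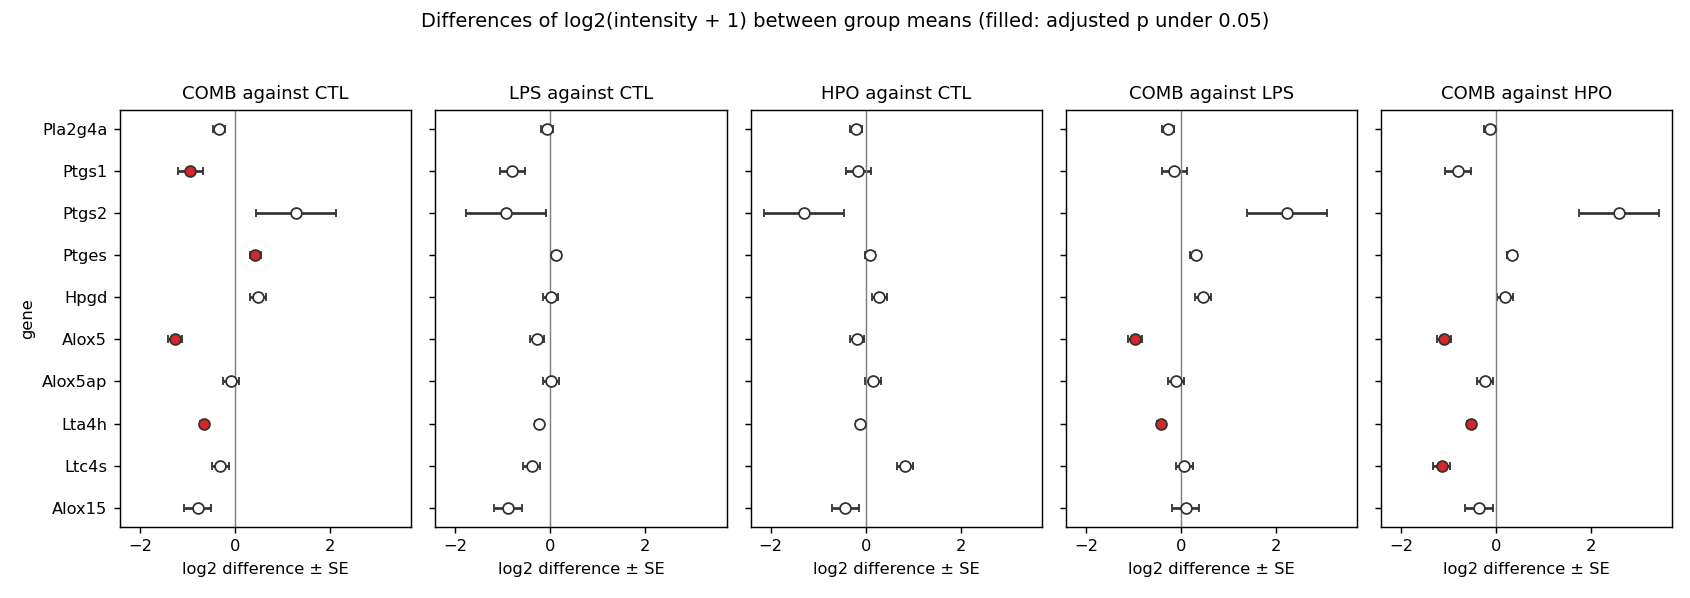
Differences of log2(intensity + 1) between group means for the 10 genes (rows), with bars of ±1 SE from limma and 1 panel per comparison; filled points have an adjusted p under 0.05. Alox5 and Lta4h are filled and left of 0 in all 3 comparisons of COMB with another group, and Ptgs2 has the widest bars, with an SE of 0.844.

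Pla2g4a encodes the cytosolic phospholipase A2 that frees arachidonic acid. Its intensity was 507.9, 453.7 and 449.6 in CTL, 519.7, 411.1 and 420.1 in LPS, 390.6, 363.5 and 470.8 in HPO, and 413.3, 361.4 and 345.1 in COMB. All 3 COMB pools lay below all 3 CTL pools, and the LPS and HPO pools overlapped with both. The log2 difference of COMB from CTL was -0.33 (SE 0.128, adjusted p = 0.0899), so that this gene did not pass the test, and the 95% interval of -0.61 to -0.06 leaves room for a small decrease. Pla2g4a did not pass in any other comparison.

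Ptgs1 encodes the constitutive cyclooxygenase. Its intensity was 536.9, 437.4 and 490.6 in CTL and 263, 260.7 and 314.2 in LPS. It was 470.6, 487.3 and 368.2 in HPO and 176.3, 440.2 and 206.9 in COMB. The LPS pools were all below the CTL pools, whereas the COMB pool of rats 10 and 11 lay within the CTL range and the other COMB pools were the lowest of all 12. Ptgs1 fell in COMB by 0.94 on the log2 scale (SE 0.266, 1.92-fold, adjusted p = 0.0269). In LPS the log2 difference from CTL was -0.80 (SE 0.266, adjusted p = 0.162), and in HPO it was -0.15 (adjusted p = 0.931).

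The Ptgs1 result depended on single pools. Its COMB call was lost when CTL rats 1, 3 and 4 were left out (log2 difference -0.87, adjusted p = 0.0922), and likewise CTL rats 8, 9 and 10 (-0.94, 0.0766), COMB rats 2 and 3 (-0.69, 0.0815) or COMB rats 12, 13 and 14 (-0.80, 0.0938). With COMB rats 10 and 11 left out it was -1.34 (adjusted p = 0.000316), and the LPS difference then also passed (adjusted p = 0.0155). The second Ptgs1 probe set was far dimmer, between 27.1 and 51.2, and did not follow the first, its log2 difference of COMB from CTL being 0.04 (adjusted p = 0.914). With the mean of both probe sets the difference was -0.45 (adjusted p = 0.132). PTGS1 is abundant in platelets, and of 6 platelet markers tested 1 was higher in COMB, Pf4, by 2.24 (adjusted p = 0.0119). The platelet markers summed to 161 to 206 in CTL, 166 to 299 in LPS, 227 to 263 in HPO and 298 to 585 in COMB, with Ppbp between 13.39 and 17.78 on every array. The part of platelets in the Ptgs1 values was not tested.

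Ptgs2 encodes the cyclooxygenase that inflammatory signals induce, and it lies next to Pla2g4a on rat chromosome 13. The 250 bases before its annotated start are shown here because Ptgs2 had the highest log2 difference of COMB from CTL among the 10 genes, with a GC box, a C/EBP pattern on the other strand and an E-box in capitals, in this order (RefSeq, GRCr8, chr13:64713813-64714062, plus strand).
Ptgs2: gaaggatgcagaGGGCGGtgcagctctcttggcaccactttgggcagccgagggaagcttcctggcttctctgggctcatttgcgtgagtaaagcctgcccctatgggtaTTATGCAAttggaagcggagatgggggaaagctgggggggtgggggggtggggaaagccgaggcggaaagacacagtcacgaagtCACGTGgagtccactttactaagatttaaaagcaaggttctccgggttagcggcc

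The intensity of Ptgs2 was 8.4, 181.7 and 10.6 in CTL, 12.3, 12.1 and 15.2 in LPS, 9.3, 10.3 and 10.4 in HPO, and 68.6, 108.2 and 37.3 in COMB. The single high CTL value belonged to the pool of rats 5, 6 and 7, and 4 of the 12 values, in CTL and HPO, lay under the 20th percentile of their own array. The COMB pools were all above the LPS and HPO pools. With all 12 arrays the log2 difference was 1.29 for COMB against CTL (SE 0.844, 95% interval -0.55 to 3.13, adjusted p = 0.329), 2.23 for COMB against LPS (adjusted p = 0.109) and 2.59 for COMB against HPO (adjusted p = 0.058), and none passed the test. Without that CTL pool Ptgs2 was higher in COMB than in CTL by 2.67 (adjusted p = 0.000401), than in LPS by 2.23 (adjusted p = 0.00148) and than in HPO by 2.59 (adjusted p = 0.000322).

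LPS alone and hypoxia alone left Ptgs2 near the bottom of the scale. Its log2 difference from CTL was -0.94 in LPS (adjusted p = 0.698) and -1.30 in HPO (adjusted p = 0.713) with all arrays, and 0.44 and 0.08 with CTL rats 5, 6 and 7 left out. The interaction was 3.53 with all arrays (SE 1.19, adjusted p = 0.249) and 2.15 without that pool (adjusted p = 0.146). The 4 pools with the most Ptgs2 also had the 4 highest sums of neutrophil, T and NK cell and mast cell markers. Monocyte marker sums were high in these pools too, and also in LPS pools with little Ptgs2. In LPS rats 5, 7 and 11 the monocyte sum was 3550, against 3473 in CTL rats 5, 6 and 7. The 11 neutrophil markers summed to 4200 to 6588 in CTL, 4676 to 5368 in LPS, 3285 to 4083 in HPO and 7080 to 12531 in COMB, and in COMB against CTL 4 of 10 tested were higher and 2 lower, while Np4, between 6.943 and 9.385, was near background. The 8 markers of recruited monocytes summed to 1417 to 3473 in CTL, 2612 to 3550 in LPS, 1596 to 1980 in HPO and 4664 to 6833 in COMB, and 3 of 6 tested were higher and 1 lower, while Ccr2, between 6.01 and 11.43, and F13a1 stayed near background. The part of these cells in the Ptgs2 values was not tested. In unsorted cells, fewer cells of a type and less RNA per cell cannot be told apart.

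**Figure D2:**
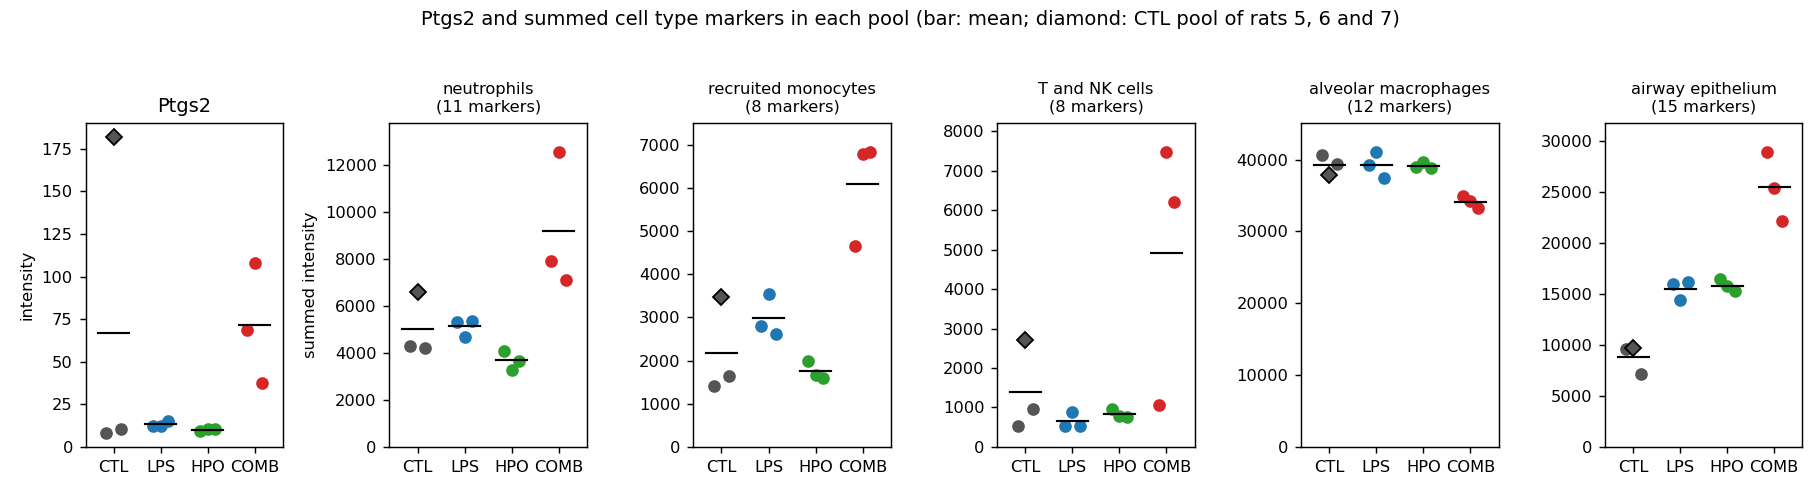
Intensity of Ptgs2 and summed intensities of 5 lists of cell type markers in each pool, on linear axes from 0; bars are means of 3 pools. The CTL pool of rats 5, 6 and 7 (diamond) is the highest CTL pool for Ptgs2 and for the neutrophil, monocyte and T and NK cell markers, and the COMB pools are the lowest for alveolar macrophage markers and the highest for airway epithelium markers.

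Ptges encodes the inducible prostaglandin E2 synthase, which works together with PTGS2. Its upstream sequence is shown for comparison with that of Ptgs2, with a C/EBP pattern and a GC box in capitals (RefSeq, GRCr8, chr3:34586988-34587237, minus strand).
Ptges: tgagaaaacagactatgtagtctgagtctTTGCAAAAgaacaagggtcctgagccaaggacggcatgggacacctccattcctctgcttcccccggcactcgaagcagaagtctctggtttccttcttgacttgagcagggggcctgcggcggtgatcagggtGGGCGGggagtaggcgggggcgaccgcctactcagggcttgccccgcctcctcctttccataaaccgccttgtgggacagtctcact

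The brighter Ptges probe set read 32.3, 37.2 and 35.1 in CTL, 35.6, 41.5 and 36.6 in LPS, 37.7, 37.4 and 36.4 in HPO, and 54.3, 45.6 and 42.4 in COMB. All COMB pools were above all other pools, and the remaining groups overlapped. Ptges rose in COMB against CTL by 0.43 on the log2 scale (SE 0.107, 1.35-fold, adjusted p = 0.0152), a call that was lost when CTL rats 1, 3 and 4 were left out (adjusted p = 0.0672). The other probe set of the gene read 13, 14.8 and 15.9 in CTL, 17.6, 14.1 and 16.6 in LPS, 21.9, 23.9 and 54.9 in HPO, and 123, 75.5 and 58.2 in COMB. In that probe set Ptges was higher in COMB than in CTL by 2.41 (SE 0.315, 5.31-fold, adjusted p = 0.000362), than in LPS by 2.28 (adjusted p = 0.00148) and than in HPO by 1.38 (adjusted p = 0.0119). Both probe sets had the same direction in COMB, and the size differed between them. In HPO against CTL the second probe set had a log2 difference of 1.03 (adjusted p = 0.287), its highest HPO value being that of the pool of rats 3, 5 and 12.

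Hpgd encodes 15-hydroxyprostaglandin dehydrogenase, which inactivates prostaglandins. It was dim, at 15.5, 11.2 and 10.9 in CTL, 13.3, 12.1 and 12.1 in LPS, 14, 15.1 and 17.3 in HPO, and 22.1, 17.6 and 14.2 in COMB. The COMB pools were above the LPS pools and overlapped with CTL and HPO. The log2 difference of COMB from CTL was 0.48 (SE 0.162, adjusted p = 0.0583). It passed in 2 of the 12 fits that left out an array, that of CTL rats 1, 3 and 4 (0.63, adjusted p = 0.0255) and that of COMB rats 12, 13 and 14 (0.63, adjusted p = 0.0212). The second Hpgd probe set lay under the 20th percentile on 10 of the 12 arrays and was not tested.

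Markers of airway epithelium moved with the COMB group, and Ptges and Hpgd are known to be made by epithelial cells too. The 15 epithelial markers summed to 7106 to 9681 in CTL, 14421 to 16125 in LPS, 15226 to 16431 in HPO and 22165 to 28877 in COMB. All 15 of 15 were higher in COMB than in CTL and 3 in LPS than in CTL. In HPO against CTL 0 passed in limma and 14 had an unadjusted p under 0.05. None was near background. Scgb1a1, the club cell secretory protein, was between 4107 and 10730. The part of epithelial cells in the Ptges and Hpgd values was not tested.

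**Figure D3:**
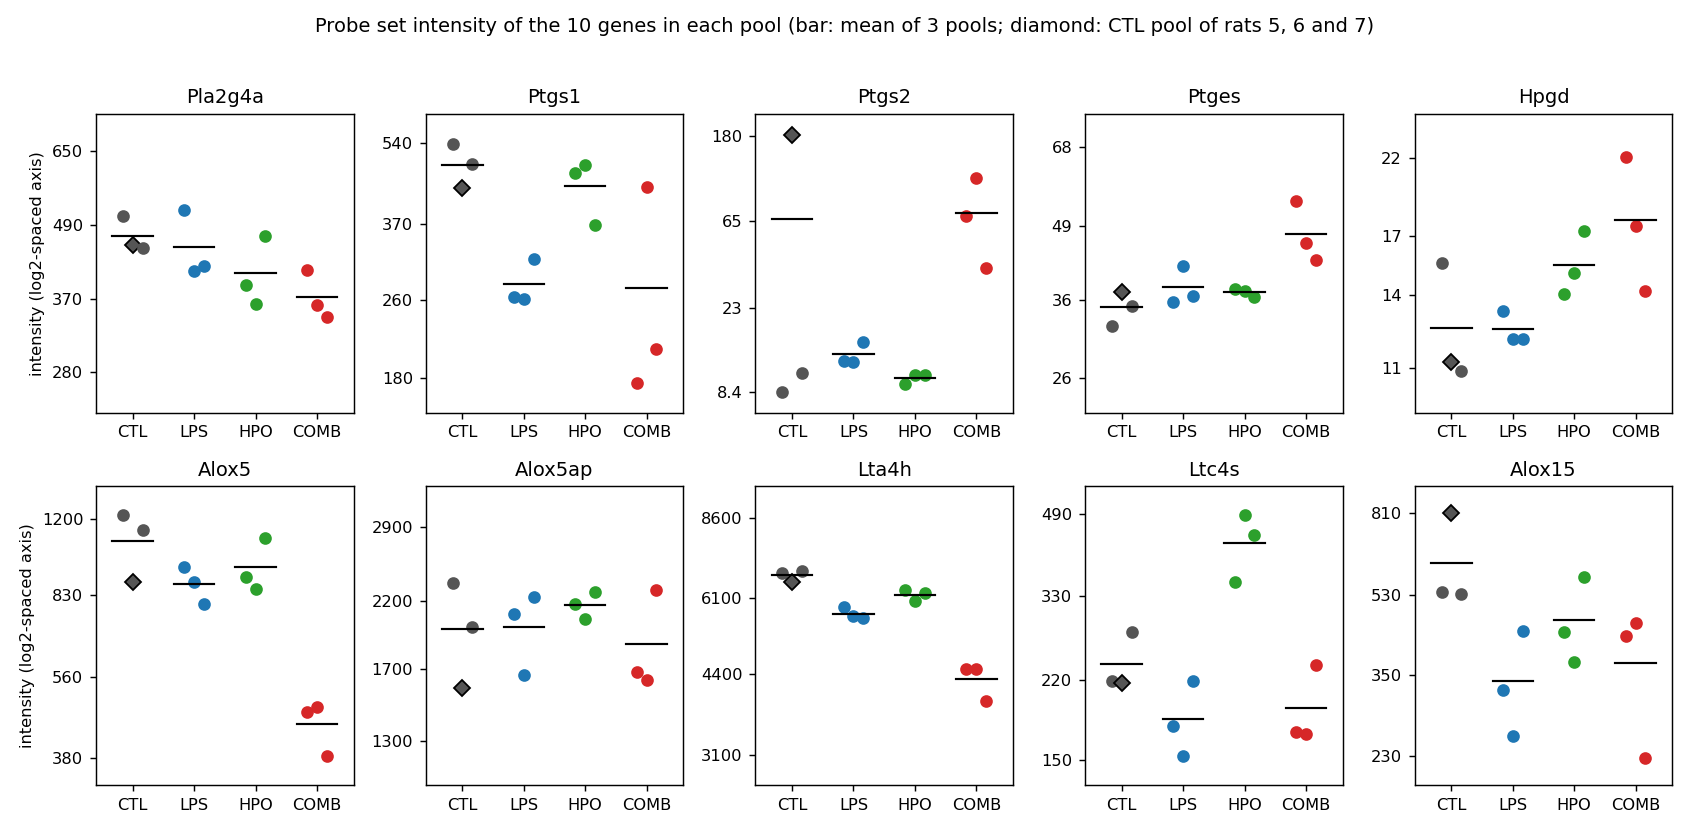
Probe set intensity of each of the 10 genes in each of the 12 pools, by group, on log2-spaced axes that differ between panels; bars are means of 3 pools and the diamond is the CTL pool of rats 5, 6 and 7. The COMB pools of Alox5 and Lta4h lie below all other pools, those of Ptges above all others, and the HPO pools of Ltc4s above all others.

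Alox5 encodes 5-lipoxygenase, the enzyme that commits arachidonic acid to leukotrienes, and Lta4h encodes leukotriene A4 hydrolase. The 250 bases before their starts are shown because these genes fell together in COMB, and the capitals mark the GC box, which reads on the other strand in Lta4h (RefSeq, GRCr8, Alox5 at chr4:151251127-151251376, minus strand, and Lta4h at chr7:29856621-29856870, plus strand).
Alox5: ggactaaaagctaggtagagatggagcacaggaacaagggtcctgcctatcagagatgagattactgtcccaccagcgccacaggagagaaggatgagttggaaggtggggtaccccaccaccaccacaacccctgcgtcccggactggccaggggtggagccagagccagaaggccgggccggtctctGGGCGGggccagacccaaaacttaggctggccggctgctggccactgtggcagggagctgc
Lta4h: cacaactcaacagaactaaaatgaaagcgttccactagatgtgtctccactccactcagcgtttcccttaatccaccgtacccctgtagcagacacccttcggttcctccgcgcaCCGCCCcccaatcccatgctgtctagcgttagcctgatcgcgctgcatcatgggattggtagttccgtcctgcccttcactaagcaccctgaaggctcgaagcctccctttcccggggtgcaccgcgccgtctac

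The intensity of Alox5 was 1219, 883.7 and 1136 in CTL, 952.4, 884.6 and 794.3 in LPS, 908.2, 854 and 1093 in HPO, and 474.2, 484.7 and 383.1 in COMB. The COMB pools did not overlap with any other group, and the other groups overlapped with each other. Alox5 fell in COMB by 1.26 on the log2 scale against CTL (SE 0.147, 2.4-fold, adjusted p = 0.00017), by 0.97 against LPS (adjusted p = 0.00215) and by 1.09 against HPO (adjusted p = 0.000617). These calls held with any 1 array left out, the difference from CTL lying between -1.40 and -1.16. In LPS against CTL the log2 difference was -0.29 (SE 0.147, adjusted p = 0.4), and in HPO against CTL it was -0.18 (adjusted p = 0.81). The interaction was -0.80 (SE 0.207, unadjusted p = 0.00235, adjusted p = 0.143), so that the COMB decrease was not shown to exceed the sum of the single effects.

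Lta4h had the smallest spread within groups of the leukotriene genes, relative to its level. Its intensity was 6798, 6520 and 6855 in CTL, 5868, 5648 and 5591 in LPS, 6304, 6027 and 6224 in HPO, and 4499, 4486 and 3924 in COMB. The 4 groups did not overlap, with CTL highest, then HPO, LPS and COMB. Lta4h fell in COMB by 0.65 on the log2 scale against CTL (SE 0.0838, 1.57-fold, adjusted p = 0.000344), by 0.41 against LPS (adjusted p = 0.00938) and by 0.53 against HPO (adjusted p = 0.00167), also with any 1 array left out. The neighbours in that order were not separated by the test above COMB, with -0.12 for HPO against CTL (adjusted p = 0.743), -0.12 for LPS against HPO (adjusted p = 0.482) and -0.24 for LPS against CTL (adjusted p = 0.193). The interaction was -0.29 (adjusted p = 0.346).

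Alox5ap encodes the membrane protein that hands arachidonic acid to 5-lipoxygenase, and unlike Alox5 it passed in no comparison. It read 2353, 1583 and 1993 in CTL, 2096, 1662 and 2230 in LPS, 2172, 2052 and 2274 in HPO, and 1683, 1632 and 2287 in COMB. The groups overlapped throughout. The log2 difference of COMB from CTL was -0.08 (SE 0.169, adjusted p = 0.791), with a 95% interval of -0.45 to 0.29 that does not reach the differences of Alox5 and Lta4h. Whether Alox5 and Alox5ap differed from each other in their response was not tested.

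Markers of alveolar macrophages also fell in part in COMB, where Alox5 and Lta4h were lowest. The 12 macrophage markers summed to 37893 to 40637 in CTL, 37419 to 41056 in LPS, 38803 to 39706 in HPO and 33315 to 34986 in COMB. Of these 12, 5 were lower and 2 higher in COMB than in CTL, with a median log2 difference of -0.32, and none was at 0. Mrc1 and Cd68 were among the 5 that did not pass. The part of a change in cell types in the Alox5 and Lta4h values was not tested.

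Ltc4s encodes leukotriene C4 synthase, which starts the cysteinyl leukotrienes, and it set HPO apart. It read 219.8, 217.6 and 277.6 in CTL, 176.3, 153 and 219.7 in LPS, 352.5, 486.2 and 441.5 in HPO, and 171.2, 170 and 236.4 in COMB. All HPO pools were above all other pools, and CTL, LPS and COMB overlapped. The log2 difference of HPO from CTL was 0.83 (SE 0.178, 1.78-fold, unadjusted p = 0.000532) with an adjusted p of 0.129, in a comparison where 9 of 25692 probe sets passed. Ltc4s was lower in COMB than in HPO by a log2 difference of -1.15 (SE 0.178, 2.22-fold, adjusted p = 0.00144) and lower in LPS than in HPO by -1.22 (2.33-fold, adjusted p = 0.00315), and these calls held with any 1 array left out. COMB and LPS did not differ by the test, with 0.07 (95% interval -0.32 to 0.46, adjusted p = 0.827). The interaction was -0.76 (SE 0.252, unadjusted p = 0.0105, adjusted p = 0.236).

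Mast cells also make cysteinyl leukotrienes. The 10 mast cell markers summed to 301 to 489 in CTL, 268 to 394 in LPS, 256 to 436 in HPO and 477 to 787 in COMB, and 0 of 9 tested passed in HPO against CTL in limma, also at an unadjusted p under 0.05. The markers differed in brightness, from Mcpt1, a mast cell protease, between 93.97 and 575.1, through Cpa3, between 22.86 and 64.96, Hdc, between 23.69 and 56.07, and Tpsab1, between 17.01 and 24.17, to Kit, between 8.115 and 11.59, and Cma1, between 6.85 and 8.982, which lay near or under the 20th percentile of the arrays. The part of mast cells in the Ltc4s values was not tested.

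Alox15 encodes another lipoxygenase of arachidonic acid. It read 539.9, 809.7 and 533.7 in CTL, 324.9, 256 and 441.3 in LPS, 437.2, 375.9 and 582.2 in HPO, and 430.1, 460.1 and 228.2 in COMB. The LPS and COMB pools were all below the CTL pools, and HPO overlapped with each group. The log2 difference from CTL was -0.79 in COMB (SE 0.285, adjusted p = 0.0761), -0.89 in LPS (adjusted p = 0.15) and -0.43 in HPO (adjusted p = 0.725), and Alox15 passed in no comparison. Eosinophils are a known source of Alox15, and their defining markers Epx, between 7.623 and 11.38, and Il5ra, between 7.464 and 10.44, were near background on every array. The 5 eosinophil markers summed to 389 to 881 in CTL, 432 to 754 in LPS, 172 to 547 in HPO and 552 to 808 in COMB, most of it from Siglec5, between 131.8 and 838.9. In COMB against CTL 0 of 3 tested passed in limma, also at an unadjusted p under 0.05, where 32.1% of all probe sets did so. The part of eosinophils in the Alox15 values was not tested.

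**Figure D4:**
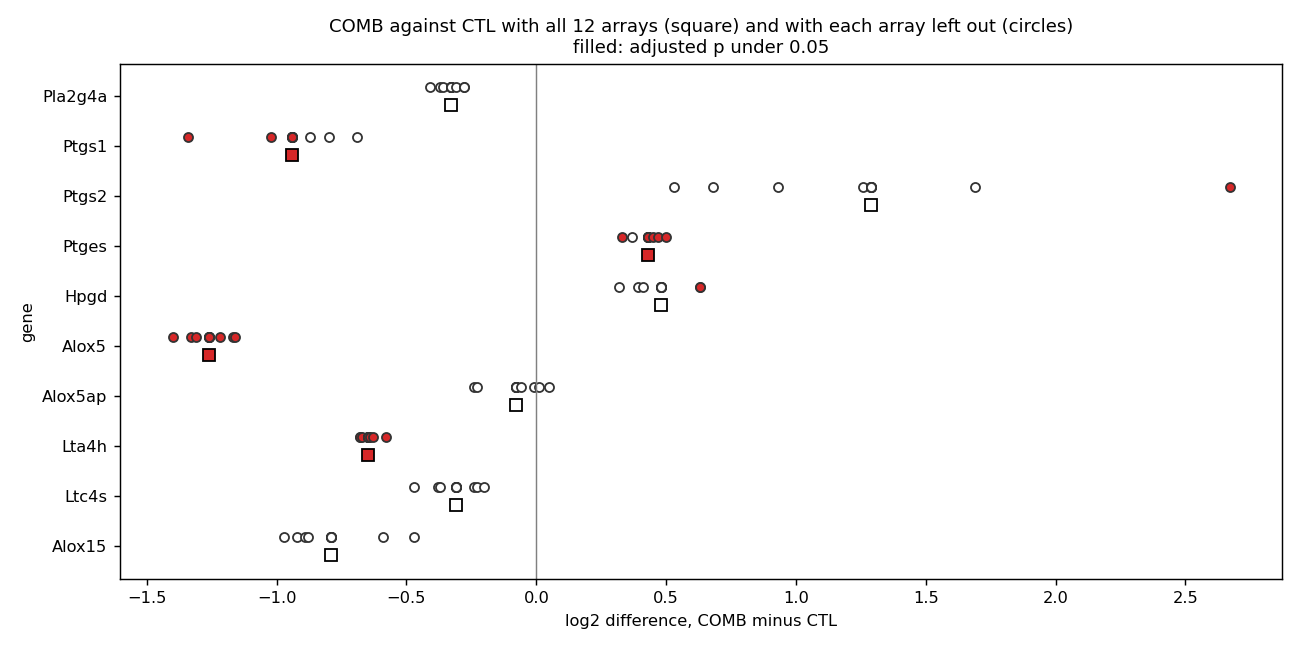
Log2 difference of COMB from CTL for the 10 genes with all 12 arrays (squares) and with each array left out in turn (circles); filled symbols have an adjusted p under 0.05. Alox5 and Lta4h stay filled throughout, Ptgs1 and Ptges lose the call in some fits, and Ptgs2 is filled at 2.67 when the CTL pool of rats 5, 6 and 7 is left out.

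Of the 10 genes, 8 have an upstream sequence in the RefSeq table, and Alox5ap and Alox15 have none there. In the windows of 250 bases, on both strands, the GC box GGGCGG was found in 5 of the 8, in Ptgs2, Ptges, Hpgd, Alox5 and Lta4h, against 30.5% of 33469 promoters. The pattern TTGCNNAA, which C/EBP factors bind, was in Ptgs2, with its first base 140 bases before the start, and in Ptges, at 221 bases, against 9.22% of promoters. The E-box CACGTG, which holds the core letters of hypoxia response elements, was in Ptgs2 at 55 bases, against 5.59%. The patterns TGANTCA of AP-1 (6.34% of promoters) and GGGNNNTTC of NF-kappa-B (11.9%) had no match in the 8 windows. TATAAA was in Pla2g4a (12.9%), TGACG in Hpgd (18.2%) and GAGGAAG, a core of PU.1 sites, in Ptgs1 (10.2%). Genes that rose and genes that fell in COMB thus both carried the GC box. A match describes the letters only, and the searched patterns do not overlap each other in these windows.

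The rest of the eicosanoid pathway was read from 80 other genes in 6 lists, of which 65 had a probe set of their own and 61 were tested. In COMB against CTL 5 were higher and 11 lower, which is 8.2% and 18%, against 8.84% and 10.2% of all probe sets, and their median log2 difference was -0.13. The lower count moved with the arrays used, and so did the calls over all 25692 probe sets. Those were 4895 with all 12 arrays, 46.4% of them higher. With CTL rats 8, 9 and 10 left out the lower count was 6, or 9.84%. All calls then numbered 3106, 48.5% of them higher. With CTL rats 1, 3 and 4 left out the lower count was 7, or 11.5%. All calls then numbered 3229, 48.7% of them higher. The lower count was 9 to 13 with any other array left out, and 5 or 6 were higher in each of these fits. In LPS against CTL 2 were higher and 4 lower, and none with either of the same CTL arrays left out. Calls over all probe sets in that comparison also fell. They went from 525 to 85 without CTL rats 1, 3 and 4 and to 64 without CTL rats 8, 9 and 10. In HPO against CTL none passed in limma and 3, or 4.92%, had an unadjusted p under 0.05, against 9.71% of all probe sets. The unpaired t-test had 2 higher and 4 lower when unadjusted, against 8.66% of all probe sets, and 0 when adjusted. In COMB against LPS 4 were higher and 5 lower. The interaction passed for 0 of 61 genes in limma, with 12, or 19.7%, at an unadjusted p under 0.05, against 12.3% of all probe sets.

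Among 17 tested genes of phospholipases A2 and annexin A1, 3 were higher and 2 lower in COMB than in CTL. The secreted phospholipase Pla2g2a read 18.71, 23.73 and 23.2 in CTL, 65.48, 42.69 and 212.3 in LPS, 21.57, 27.93 and 28.6 in HPO, and 371.9, 101 and 158.5 in COMB. It was higher in COMB than in CTL by 3.00 on the log2 scale (SE 0.521, 8.01-fold, adjusted p = 0.00193), and its LPS difference of 1.90 had an adjusted p of 0.092. Plaat3, a phospholipase and acyltransferase, rose by 2.62 (adjusted p = 0.000174), its range being 92.08 to 299.3 in CTL and 926 to 1206 in COMB, and by 1.94 against LPS (adjusted p = 0.00263). Pla2g1b rose in COMB by 1.35 (adjusted p = 0.00155) and in LPS by 1.22 (adjusted p = 0.0223). The lower genes were Pla2g15, by 0.62, and the secreted Pla2g2d, by 0.61, which are named here after their values were seen. Against LPS, the lysosomal Pla2g15 fell by 0.59 (adjusted p = 0.00437) and the membrane-bound Pnpla8 by 0.63 (adjusted p = 0.0102). Annexin A1, Anxa1, an inhibitor of phospholipase A2, was between 7929 and 9257 on all arrays and did not pass.

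Among 11 other prostanoid synthases tested, 1 was higher and 1 lower in COMB than in CTL. Hpgds, the hematopoietic prostaglandin D2 synthase, read 24.4, 33.56 and 34.37 in CTL, 38.97, 36.52 and 38.81 in LPS, 30.97, 38.54 and 36.33 in HPO, and 318.1, 453.9 and 110.8 in COMB. The COMB pools of Hpgds did not overlap with any other group, and it was higher there than in CTL by 3.01 (SE 0.374, 8.05-fold, adjusted p = 0.000261) and than in LPS by 2.70 (adjusted p = 0.00151). Its interaction was 2.49 (SE 0.529, unadjusted p = 0.00051, adjusted p = 0.0844). Mast cells, T cells and macrophages are known sources of HPGDS. In COMB against CTL 2 of 9 mast cell markers and 2 of 8 markers of T and NK cells were higher. Over all probe sets 8.84% were higher. The T and NK cell markers summed to 533 to 2704 in CTL, 523 to 877 in LPS, 752 to 953 in HPO and 1073 to 7472 in COMB, none being at 0, and the part of these cells in the Hpgds values was not tested. Of the remaining markers, 0 of 3 of B cells passed in COMB against CTL in limma, with 1 at an unadjusted p under 0.05, and 1 of 7 of endothelium and fibroblasts was higher. Prxl2b, a prostamide and prostaglandin F synthase, fell by 0.65 against CTL (adjusted p = 0.00322) and by 0.45 against LPS (adjusted p = 0.033), and Ptges3l1, a gene related to Ptges3, was lower than in LPS by a log2 difference of -0.47 (adjusted p = 0.0384). Ptges3, the cytosolic prostaglandin E synthase and a co-chaperone, rose in LPS by 0.46 (adjusted p = 0.0238). The thromboxane synthase Tbxas1 was between 572.1 and 901.3 and did not pass.

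Among 14 other lipoxygenase and leukotriene genes tested, 1 was higher and 4 lower in COMB than in CTL. Ggt1, the gamma-glutamyl transferase that can turn leukotriene C4 into D4, read 32.91, 41.09 and 37.16 in CTL, 62.11, 51.56 and 51.24 in LPS, 45.56, 49.17 and 49.81 in HPO, and 208, 268 and 145 in COMB. Ggt1 was higher in COMB than in CTL by 2.41 (SE 0.182, 5.32-fold, adjusted p = 1.38e-05) and than in LPS by 1.86 (adjusted p = 0.000307), with an interaction of 1.48 (adjusted p = 0.0543). The microsomal glutathione transferases, relatives of LTC4S, fell in COMB, Mgst2 by 0.52 (adjusted p = 0.00197) and Mgst3 by 0.58 (adjusted p = 0.0317), and Mgst2 also in LPS by 0.44 (adjusted p = 0.0339). Cotl1, a 5-lipoxygenase partner, and Cyp4f5 were the other lower genes, with -0.40 (adjusted p = 0.0193) and -0.48 (adjusted p = 0.0375), and they are named outside the naming rule after their values were seen.

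Among 7 genes of eicosanoid transport and inactivation, 2 were lower in COMB and 2 in LPS than in CTL. Ptgr1, which reduces leukotriene B4 and 15-keto prostaglandins, read 70.39, 60.48 and 61.41 in CTL, 14, 15.46 and 37.68 in LPS, 106.3, 101.2 and 141.3 in HPO, and 112.8, 128.2 and 56.97 in COMB. Its LPS pools were the lowest of all, and Ptgr1 fell in LPS by 1.61 (SE 0.348, 3.06-fold, adjusted p = 0.0386), while COMB was above LPS by 2.16 (adjusted p = 0.00292). Its relative Ptgr3 fell in LPS by 1.07 (adjusted p = 0.0252) and in COMB by 0.69 (adjusted p = 0.0348), and Ptgr2 fell in COMB by 0.58 (adjusted p = 0.0313). With the mean of the Ptgr3 probe sets neither Ptgr3 difference passed in limma. It was -0.55 in LPS (adjusted p = 0.0931) and -0.41 in COMB (adjusted p = 0.0838).

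Of 8 prostanoid receptor genes tested, 1 was lower in COMB, Ptgfrn, a negative regulator of the prostaglandin F receptor, by 0.74 (adjusted p = 0.0103). Of 4 leukotriene and lipoxin receptor genes tested, 1 was lower, the cysteinyl leukotriene receptor Cysltr1, by 0.76 (adjusted p = 0.00173), and by 0.57 in LPS (adjusted p = 0.0468). Cysltr1 was dim, at 23.17, 16.25 and 18.93 in CTL and 14.37, 13.06 and 10.83 in LPS. It read 15.93, 16.32 and 15.21 in HPO. Its COMB values of 11.53, 10.64 and 10.83 lay near the 20th percentile of their arrays. The 6 pathway calls in LPS against CTL were each lost in 5 to 9 of the 12 fits that left out an array. In COMB against CTL, Mgst3, Ptgr2 and Ptgr3 lost the call in 3, 3 and 4 of these fits, and in COMB against LPS, Ptges3l1 and Prxl2b lost it in 8 and 6. The calls of Pla2g2a, Plaat3, Pla2g1b, Hpgds, Ggt1, Prxl2b, Mgst2, Ptgfrn and Cysltr1 in COMB against CTL held in all 12.

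**Figure D5:**
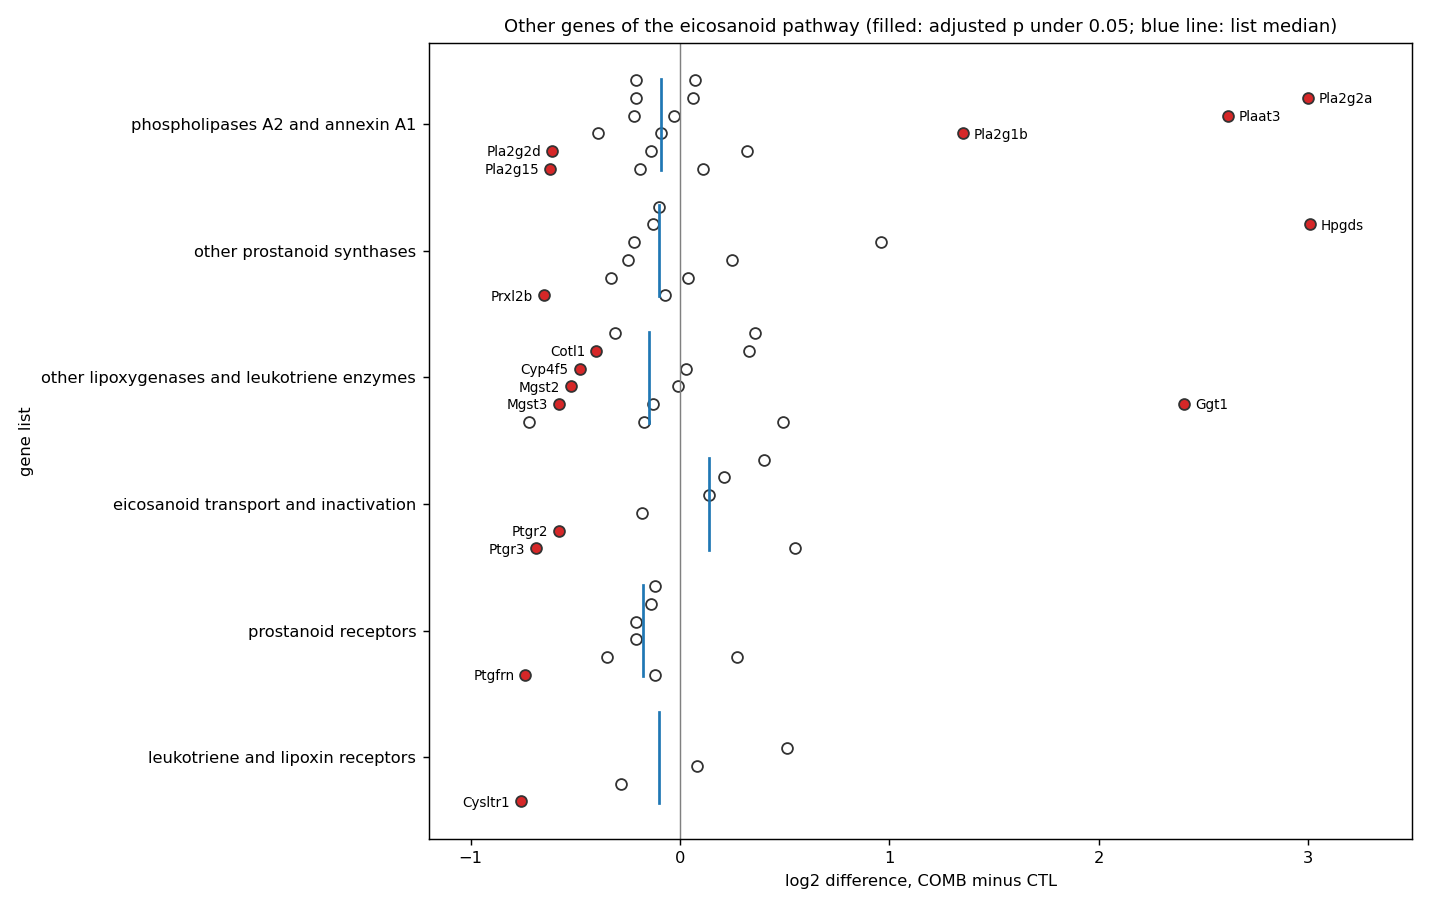
Log2 difference of COMB from CTL for the 61 tested genes of 6 pathway lists, 1 point per gene, with the list median as a blue line; filled and named genes have an adjusted p under 0.05. The 5 filled points on the right, from 1.35 to 3.01, stand apart from the 11 on the left, which lie between -0.76 and -0.40.

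Across the 12 arrays, the genes with the pattern most like that of Ptgs2 among 12852 compared were Stfa2l2 (Pearson r = 0.948), Tlr1 (0.946), Ampd3 (0.946), Kdm6b (0.933) and Wsb1 (0.926). Those most like Alox5, the lowest of the 10 genes in COMB against CTL, were Klhl5 (0.98), Dip2a (0.978), Sgk3 (0.974), Ermp1 (0.973) and Sun2 (0.973). These values are a description, since the arrays share the 4 groups and, for Ptgs2, the high CTL pool.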

How the data were processed

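RNA of BALF cells was pooled within groups and hybridised by the authors to 12 Affymetrix Rat Genome arrays. The deposited values are 1 linear intensity per probe set and array, and the normalization method is not given in the sources used here. Groups were taken from the labels. The labels list 2 rats in 2 of the COMB pools, where the methods give 3, and p-values measure the spread between pools. The 10 genes and all lists were chosen with earlier results of these data known.

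Of the probe sets, 20832 named 1 gene, 436 several and 9831 none by a platform annotation. Testing took the 25692 probe sets, outside 57 controls, that exceeded in 3 or more arrays the value below which 20% of that array lay. A model of 4 group means was fitted with limma 3.58.1 in R 4.3.3, on files read with the package data.table (1.17.8). It was fitted to values of log2(intensity + 1), with 8 residual and 3.94 prior degrees of freedom, and p was adjusted by Benjamini-Hochberg over all probe sets tested, at a threshold of 0.05. Log2 differences understate the change of dim genes, and 12 arrays limit the precision. Up to 3 called genes per pathway list and comparison were named, those of largest difference first, then the 5 genes most like Ptgs2 and Alox5. Alternatives were other scalings, filters, pseudocounts, weights, tests, probe set rules and leaving out each array. Upstream sequences and neighbours are from RefSeq tables on GRCr8.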

Additional observations from a re-analysis of the deposited data

How the results depend on the processing

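Without any 1 array in turn, Alox5 and Lta4h were called lower in COMB than in CTL, LPS and HPO, and Ltc4s lower in COMB and LPS than in HPO. Over 4 comparisons (each exposure against CTL, and COMB against LPS), 451 of 480 single values of the 10 genes kept their direction and their side of the threshold when an array was left out, and 521 of 566 did so under the other alternatives. Of the 26 calls named from the pathway lists, none reversed, and 61 of 312 values with an array left out and 54 of 367 under other alternatives lost the call.

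The count of called genes among the 10 changed by over 1.5 times as follows. With array weights, which ranged from 0.226 for the HPO pool of rats 3, 5 and 12 to 6.38 for the HPO pool of rats 7, 8 and 9, it was 4 for LPS against CTL, 2 for HPO against CTL, 6 for COMB against HPO, 2 for LPS against HPO and 1, Alox5, for the interaction. Over all 25692 probe sets, calls in these comparisons numbered 3702, 3576, 6774, 5764 and 2116. Without weights they numbered 525, 9, 4004, 1848 and 35. With only the groups compared in the fit the count among the 10 was 2 for COMB against CTL, 1 for LPS against CTL and 2 for LPS against HPO. Calls over all probe sets were then 3456, 1147 and 1718. With the unpaired t-test, unadjusted, it was 3 for LPS against CTL and 2 for HPO against CTL. The same test gave 5 for COMB against HPO and 5 for LPS against HPO. Adjusted, the count was 1 (Lta4h) for COMB against CTL and 0 for COMB against LPS, COMB against HPO and LPS against HPO. With a fold change of 2 and no test it was 2 for COMB against CTL, 1 for HPO against CTL and 1 for COMB against LPS. It was 5 for COMB against HPO with the median filter, under which Hpgd was not tested, and 1 for LPS against CTL with trended and robust eBayes. With an array left out it was 0 to 1 for LPS against CTL and 1 to 2 for LPS against HPO, the change coming from the COMB pool of rats 10 and 11. Smaller moves gave 3 to 6 genes for COMB against CTL, with Pla2g4a, Hpgd or Ptgs2 added or Ptgs1 or Ptges lost, 3 to 4 for COMB against HPO, with Ptgs1, Ptgs2 or Ptges added, and 3 in place of 2 for COMB against LPS. The gene added there was Ptgs2 with only the groups compared, with the unadjusted t-test and with CTL rats 5, 6 and 7 left out, Hpgd with COMB rats 12, 13 and 14 left out, and Ptges (1.29, adjusted p = 0.00183) with the mean of its probe sets. The cause of these changes was not tested.

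Of the 61 other pathway genes, 7 were lower in COMB than in CTL and 5 lower in COMB than in HPO with only the groups compared, and 2 were higher and 1 lower in COMB than in CTL with the adjusted t-test. Array weights gave 8 higher and 15 lower in COMB against CTL and 5 higher and 13 lower in LPS against CTL. With an array left out, 3 to 8 were lower in COMB than in LPS. All calls in that comparison then ranged from 1526 to 3868, against 3060 with all arrays.

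LPS and CTL pools share some rat numbers. The deviations of pools joined by these numbers from their group means had correlations of 0.039, -0.008 and -0.002. Those of pools not joined ranged from -0.055 to 0.05. With 3 pools per group, and numbers shared only in part, this cannot show whether the numbers pair the samples. A fit with these numbers as a replicate block called 1 gene, Ptgs1, in LPS against CTL.

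Directions that turned were all of uncalled values. In LPS against CTL, Hpgd was -0.03 with quantile normalization and -0.01 with median centring, and Pla2g4a was 0.03 with array weights. In COMB against LPS, Ltc4s was -0.02 with quantile normalization and Ptgs1 was 0.09 with array weights. In HPO against CTL, Ptgs1 was 0.09 with the mean of its probe sets. With an array left out, Alox5ap ranged from -0.24 to 0.05 in COMB against CTL, -0.13 to 0.16 in LPS against CTL and 0 to 0.29 in HPO against CTL, Ptgs2 from -1.70 to 0.44 in LPS against CTL and -2.06 to 0.08 in HPO against CTL, and Hpgd from -0.08 to 0.16 in LPS against CTL. In COMB against LPS, Ltc4s ranged from -0.08 to 0.21, Alox15 from -0.09 to 0.42 and Ptgs1 from -0.54 to 0.12.

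The share of all calls that were higher moved with the scaling. It was 46.4% in COMB against CTL as reported, 41.3% with quantile normalization and 36.9% with median centring, and 55.8%, 42% and 46.3% in COMB against LPS. Ptgs2 in CTL, Hpgd, Cysltr1 and the second Ptgs1 probe set were dim, which limits what their values can show.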

Other observations

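Of the other genes of the eicosanoid pathway, 6 of 61 were higher in COMB than in HPO and 11 lower, against 6.83% and 8.75% of all probe sets. The lower count was 6 with HPO rats 2, 4 and 11 or COMB rats 12, 13 and 14 left out and 7 with HPO rats 7, 8 and 9 left out. Calls over all probe sets also fell in these fits, from 4004 to 2880, 2968 and 2909. Of these, 38.2%, 51.1% and 40.9% were higher, against 43.9% with all 12 arrays. Among the higher genes were Pla2g2a, higher by 2.76 on the log2 scale (adjusted p = 0.00439), Plaat3, higher by 2.12 (adjusted p = 0.000932), Hpgds, higher by 2.81 (adjusted p = 0.000587), and Ggt1, higher by 2.04 (adjusted p = 6.7e-05). In LPS against HPO 2 of 61 were higher and 6 lower, against 2.59% and 4.6% of all probe sets, and the lower count was 3 with any LPS array, or HPO rats 3, 5 and 12, left out. Calls over all probe sets then fell from 1848 to between 608 and 1084 without an LPS array, and to 1128 without that HPO array. Among the lower pathway genes with all arrays was Ptgr1, with a log2 difference of -2.45 (SE 0.348, 5.47-fold, adjusted p = 0.00282). These genes were picked after their values were seen.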
